A study of Homo sapiens with 6 samples.

Results

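The genes described here encode enzymes and helpers that modify collagen in the endoplasmic reticulum: the lysyl hydroxylases PLOD1, PLOD2 and PLOD3, the prolyl 4-hydroxylase subunits P4HA1, P4HA2 and P4HB, the collagen galactosyltransferase COLGALT1 and the collagen chaperone SERPINH1, 8 of the 60664 genes in the table. They were taken by symbol. PLOD2 was chosen by its difference in normalized counts between RNH1 KO and RNH1 WT polysomes, among the largest decreases in these data, and the other 7 were added as its paralogs and partners. The difference of PLOD2 between the genotypes is therefore given as a description, without a test.

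The study compared polysomal RNA of K562 cells, a human erythroleukemia line from bone marrow, with RNH1 knocked out by CRISPR/Cas9 (RNH1 KO, 3 samples) and without the knockout (RNH1 WT, 3 samples), to ask how the ribonuclease inhibitor RNH1 affects translation. Cells of both genotypes were washed in cycloheximide, which holds ribosomes on mRNA, lysates were separated on sucrose gradients, and RNA from the polysome fractions was made into stranded total RNA libraries. The replicates of each genotype are described in the study as independent. Whether that means separate cultures, and whether the KO samples came from 1 clone, is not given in the sources, so the p-values reflect the spread among the 6 samples at hand, which could be partly technical. The polysomal level of a transcript reflects its abundance in the cell as well as the share of it that carries ribosomes, and in bulk samples fewer cells with a transcript and less of it per cell cannot be told apart. The study also set its polysomal data beside total RNA sequencing reported earlier, which was not used here.

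Reads in genes numbered 34908202 to 46256928 per sample. The targeted gene RNH1 had 1058, 1144 and 997 normalized counts in KO, against 4566, 2857 and 1865 in WT (log2 fold change -1.44), so its transcript was reduced and not absent. Of 13 erythroid markers 12 reached a mean of 10 normalized counts, with HBE1 listed at 0 throughout. Their summed level ranged over 94088 to 105503 in KO and 132887 to 139561 in WT. The annotated HBE1 gene overlaps HBG2 on the same strand, and reads of such a pair may not be fully told apart. The 0 of HBE1 is therefore not read as absence of its transcript. The B cell marker MS4A1 was also listed at 0 throughout, although the deposited cell type is lymphoblast. Markers of fibroblasts, in which these collagen enzymes are best known, were near 0: FAP, LUM and POSTN had no read, 1 of 10 reached a mean of 10, and the list summed to 71.5 to 79.4 in KO and 38.5 to 66.8 in WT. The endothelial list summed to 413 to 423 in KO and 0.995 to 6.26 in WT, in KO nearly all of it PECAM1, with CDH5 and KDR at 0. The lymphocyte list summed to 4393 to 4972 in KO and 2769 to 3456 in WT, and the myeloid list to 3251 to 4126 in KO and 3437 to 5013 in WT. The part of these markers in the results was not tested.

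Collagen chains are hydroxylated on proline and lysine while they enter the endoplasmic reticulum. Prolyl 4-hydroxylase, a complex of catalytic alpha subunits with the beta subunit P4HB (protein disulfide isomerase), makes the 4-hydroxyproline that holds the triple helix together at body temperature. Lysyl hydroxylases make hydroxylysine, which COLGALT1 can decorate with galactose and which takes part in cross-links between collagen molecules. PLOD2 is known for hydroxylating lysines in the end regions of collagen and for its induction under hypoxia.

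The promoters of the lysyl hydroxylase family are shown because PLOD2, chosen for its decrease, is a known hypoxia-inducible gene. Each runs from 250 bases before to 50 bases after the transcription start in RefSeq (GRCh38.p14), in the direction of transcription. Capitals mark ACGTG or GCGTG, the core letters of the hypoxia response element, on either strand (CACGT and CACGC are their reverse complements). The windows are chr3:146161135-146161434 (minus strand) for PLOD2, chr1:11934467-11934766 (plus strand) for PLOD1 and chr7:101217532-101217831 (minus strand) for PLOD3.
PLOD2: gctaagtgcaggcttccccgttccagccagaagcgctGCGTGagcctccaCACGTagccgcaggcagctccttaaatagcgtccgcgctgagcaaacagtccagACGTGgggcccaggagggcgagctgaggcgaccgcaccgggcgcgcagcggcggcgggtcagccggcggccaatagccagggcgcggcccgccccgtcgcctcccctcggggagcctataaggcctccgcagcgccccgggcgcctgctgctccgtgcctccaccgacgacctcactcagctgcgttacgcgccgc
PLOD1: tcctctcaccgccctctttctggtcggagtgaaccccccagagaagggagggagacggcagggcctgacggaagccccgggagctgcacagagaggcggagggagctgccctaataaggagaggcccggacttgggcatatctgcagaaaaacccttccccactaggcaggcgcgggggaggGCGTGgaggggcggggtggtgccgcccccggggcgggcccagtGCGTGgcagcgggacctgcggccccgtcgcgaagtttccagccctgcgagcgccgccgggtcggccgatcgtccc
PLOD3: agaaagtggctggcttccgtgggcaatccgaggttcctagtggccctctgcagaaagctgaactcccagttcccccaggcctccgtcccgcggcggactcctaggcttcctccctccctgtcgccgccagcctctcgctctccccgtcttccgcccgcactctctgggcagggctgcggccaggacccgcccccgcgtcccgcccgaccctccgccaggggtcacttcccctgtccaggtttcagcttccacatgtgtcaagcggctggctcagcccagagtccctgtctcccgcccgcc
The core letters occurred 3 times in the PLOD2 window, 2 times in that of PLOD1 and 0 times in that of PLOD3. Among the partners they occurred 1 time for P4HA1, 0 times for P4HA2, 1 time for P4HB and 2 times for COLGALT1, and SERPINH1, which has 2 annotated starts, had 1 and 3. Of 35116 RefSeq promoter windows of this size, 48.4% held at least 1 match and 10.1% at least 3. Whether these letters relate to the differences between RNH1 KO and RNH1 WT was not tested.

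PLOD2 (ENSG00000152952) is a gene of 20 exons (canonical transcript) on chromosome 3 (GRCh38, minus strand, 146035139 to 146163725). It had 40.6, 18.4 and 16.4 normalized counts in KO replicates 1, 2 and 3, against 1463, 2547 and 1999 in WT replicates 1, 2 and 3 (normalized counts are reads divided by 1 size factor per sample). Every KO sample was far below every WT sample. The means were 25.1 ± 13.5 in KO and 2003 ± 542 in WT (SD, n = 3 each), and the log2 ratio of KO to WT (log2 fold change), on the log2(normalized count + 1) scale, was -6.34 (standard error 0.31). This was the lowest value of the 16652 genes whose mean reached 10 normalized counts. The genes next in that order were SELENOP at -6.22 and ENSG00000272046 at -6.06, and 9 genes lay under -5.

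The PLOD2 reads behind these values were few in KO but countable. There were 44, 18 and 19 reads in KO, against 1402, 2561 and 1764 in WT, where 3 reads were taken as the floor above 0. Pooled per genotype and divided by the summed size factors, 81 KO reads against 5727 WT reads put KO at 1.25% of WT. This is a description without an interval. PLOD2 was thus about 80.1-fold lower in KO, and still above the read floor in all 3 KO libraries. KO replicate 1 held more than the other 2 KO libraries. Without it the log2 fold change was -6.74, and without any other single library it stayed between -6.55 and -6.11.

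PLOD1 (ENSG00000083444), the lysyl hydroxylase that acts on the helical part of collagen chains, lies on the plus strand of chromosome 1 from 11934205 to 11975538. It had 5111, 5411 and 5904 normalized counts in KO, against 6232, 4071 and 3350 in WT. WT replicate 1 was above all KO samples and the other 2 WT samples below them, so the groups overlapped. The log2 fold change was 0.31 (standard error 0.23, 95% interval -0.17 to 0.79, adjusted p = 0.285 from limma over all genes). Without WT replicate 1 it was 0.57 and passed, with adjusted p = 0.0235. Leaving out WT replicate 3 instead gave 0.12 (adjusted p = 0.701 from limma), and no other single omission made PLOD1 pass.

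PLOD3 (ENSG00000106397), which hydroxylates lysine and also carries glycosyltransferase activity, lies on the minus strand of chromosome 7 from 101205977 to 101218420. It had 2554, 2626 and 2871 normalized counts in KO, against 2830, 1733 and 1485 in WT. The order of the WT samples was that of PLOD1, and WT replicate 1 again overlapped the KO samples. The log2 fold change was 0.47 (standard error 0.23, 95% interval -0.01 to 0.95, adjusted p = 0.111 from limma), and without WT replicate 1 it was 0.74 with adjusted p = 0.00433. Leaving out WT replicate 3 instead gave 0.28 (adjusted p = 0.361 from limma), and no other single omission made PLOD3 pass. PLOD3 overlaps ZNHIT1 on the opposite strand, with mean normalized counts of 1812 in KO and 3644 in WT, and since the sources used here do not say whether reads were counted by strand, reads of such a pair may not be fully told apart.

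Within the lysyl hydroxylase family, PLOD2 transcripts made up almost none of the total in KO. Per kilobase of exon union, PLOD2 made up 0.198%, 0.0853% and 0.0697% of the summed PLOD level in KO, against 5.69%, 14.1% and 13.4% in WT. The exon union of PLOD2 (14518 bases) is much longer than its canonical transcript (3749 bases). By canonical length the PLOD2 share was 0.245 ± 0.145% in KO and 20.4 ± 7.97% in WT (SD, n = 3 each). PLOD1 then held 65.7% in KO and 54.3% in WT, and PLOD3 34.0% in KO and 25.3% in WT. The summed PLOD level by canonical length was 2798 ± 190 normalized counts per kilobase in KO and 2778 ± 659 in WT (SD, n = 3 each), a difference smaller than the spread of either genotype. By exon union the sum was 1504 ± 104 in KO and 1349 ± 382 in WT (SD, n = 3 each). That difference was larger than the KO spread and smaller than the WT spread. The shares describe the chosen contrast of PLOD2 and were not tested.

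**Figure D1:**
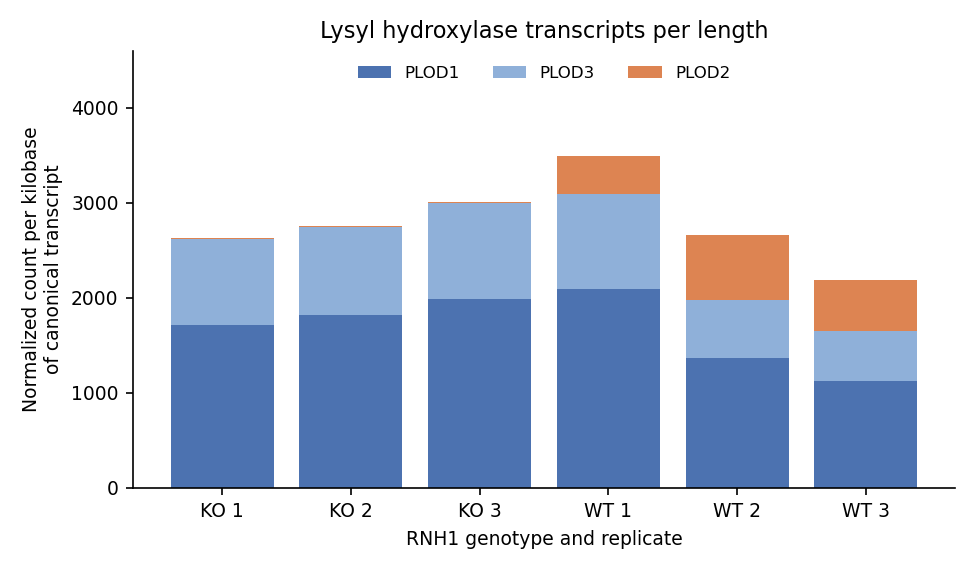
Stacked bars of the normalized count per kilobase of canonical transcript (vertical axis) of PLOD1, PLOD3 and PLOD2 in each of the 3 KO and 3 WT samples, without error bars because each bar is 1 sample. The PLOD2 layer is barely visible in KO (mean 0.245%) and makes up 20.4% on average in WT, while the height of the KO bars (2634 to 3006) lies within the range of the WT bars (2185 to 3487).

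The catalytic subunits of prolyl 4-hydroxylase did not pass the test. P4HA1 (ENSG00000122884), on the minus strand of chromosome 10 from 73007217 to 73096974, had 2727, 2042 and 2647 normalized counts in KO, against 2531, 3376 and 2867 in WT. KO replicate 1 and KO replicate 3 were above the lowest WT sample. The log2 fold change was -0.24 (standard error 0.20, 95% interval -0.67 to 0.18, adjusted p = 0.35 from limma), and 0.081 when libraries were scaled to their totals.

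P4HA2 (ENSG00000072682), the second alpha subunit, lies on the minus strand of chromosome 5 from 132190147 to 132295315. It had 765, 757 and 891 normalized counts in KO, against 992, 865 and 719 in WT, and the genotypes overlapped throughout. The log2 fold change was -0.09 (standard error 0.20, 95% interval -0.51 to 0.34, adjusted p = 0.761 from limma), and it was positive with upper-quartile scaling (0.055), with scaling to library totals (0.24) and without WT replicate 1 (0.024). P4HA2 overlaps PDLIM4 and SLC22A4 on the opposite strand, with means of 347 and 82.4 normalized counts in KO and 244 and 61.9 in WT. The third alpha subunit gene, P4HA3, had no read in any sample.

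P4HB (ENSG00000185624), the beta subunit and an abundant protein disulfide isomerase, was the only one of the 7 partners that passed, and it was higher in KO. It lies on the minus strand of chromosome 17 from 81843159 to 81860856 and had 23734, 24988 and 28372 normalized counts in KO, against 21485, 20529 and 11196 in WT. All KO samples were above all WT samples, with WT replicate 3 far below the other 2. The means were 25698 ± 2399 in KO and 17737 ± 5685 in WT (SD, n = 3 each), and the log2 fold change was 0.59 (standard error 0.25, 95% interval 0.06 to 1.11, adjusted p = 0.0692 from limma). Among all genes tested 24.1% were called higher and 25.6% were higher without overlap, so 1 of 7 was not more than that background. The call was lost without WT replicate 3 (0.29, adjusted p = 0.262), KO replicate 1 (0.64, 0.116), KO replicate 2 (0.61, 0.136) or KO replicate 3 (0.52, 0.198).

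COLGALT1 (ENSG00000130309), which adds galactose to hydroxylysine, lies on the plus strand of chromosome 19 from 17555649 to 17583162. It had 8005, 9094 and 9465 normalized counts in KO, against 8132, 7701 and 4862 in WT. Only KO replicate 1 overlapped the WT range, below WT replicate 1. The log2 fold change was 0.39 (standard error 0.23, 95% interval -0.08 to 0.87, adjusted p = 0.175 from limma). It passed without WT replicate 1 (0.53, adjusted p = 0.0785) and without WT replicate 2 (0.49, adjusted p = 0.0890). It did not pass without WT replicate 3 (0.16, adjusted p = 0.534 from limma) or without any single KO library.

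SERPINH1 (ENSG00000149257), also called HSP47, binds the folded triple helix in the endoplasmic reticulum and lies on the plus strand of chromosome 11 from 75562056 to 75572783. It had 5150, 5863 and 6893 normalized counts in KO, against 7699, 5545 and 4532 in WT. The genotypes overlapped, with the highest and the lowest of all 6 values in WT. The log2 fold change was 0.04 (standard error 0.22, 95% interval -0.44 to 0.51, adjusted p = 0.914 from limma), and it turned negative without KO replicate 3 (-0.07) or WT replicate 3 (-0.14).

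**Figure D2:**
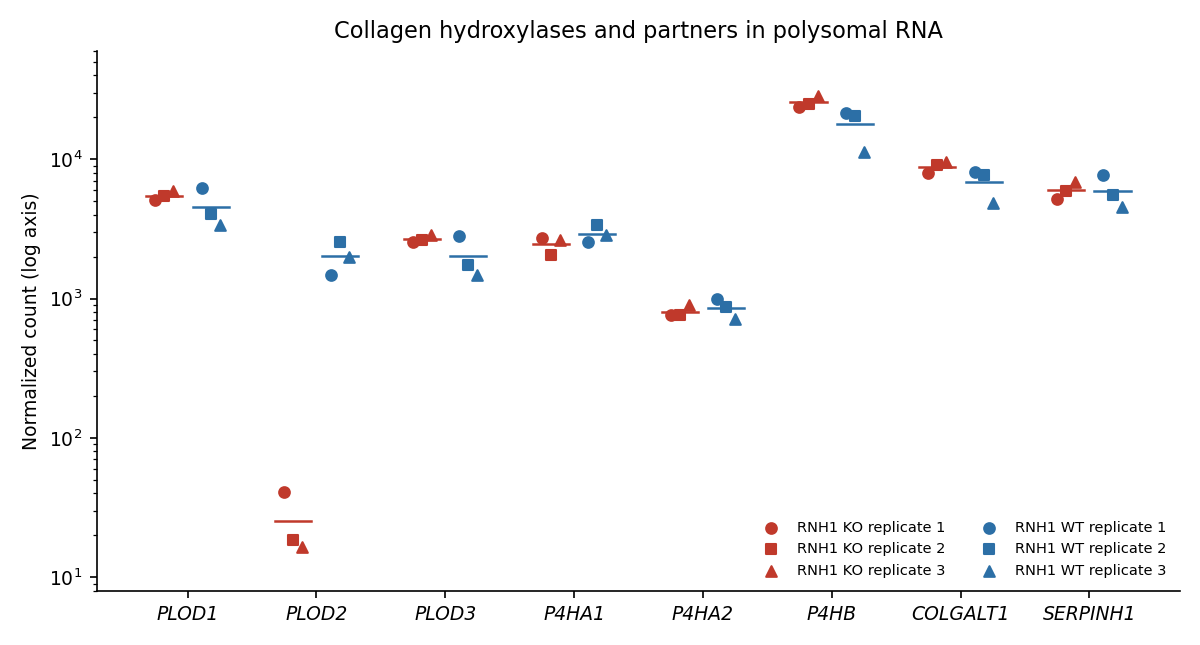
Normalized count (log axis) of the 8 genes in each sample, with KO samples in red left of WT samples in blue, 1 symbol per replicate and a horizontal line at each mean of 3. PLOD2 is at 16.4 to 40.6 in KO and 1463 to 2547 in WT, while for the other genes the groups lie close together and overlap for all but P4HB.

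Across the 8 genes, 2 had groups that did not overlap (PLOD2 lower, which the choice of the genes fixed, and P4HB higher), where 51.1% of all genes tested did so. At the limma threshold 48.2% of all genes were called, 24.1% lower and 24.1% higher in KO. The middle of all genes was close to 0 (median log2 fold change 0.03, quartiles -0.54 and 0.57), and 6 of the 7 partners lay between those quartiles. P4HB lay just above the upper one. Scaling to library totals moved the median of all genes by 0.32, and with it PLOD1 (0.64), PLOD3 (0.79) and COLGALT1 (0.72) also passed.

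**Figure D3:**
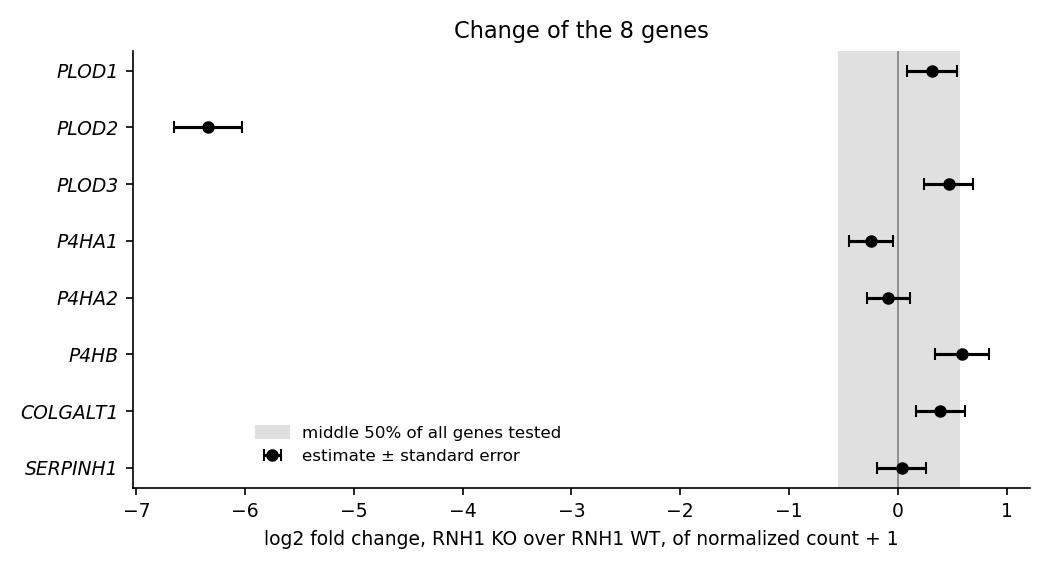
Log2 fold change of KO over WT on the log2(normalized count + 1) scale (horizontal axis) for the 8 genes, as points with standard errors from limma (3 samples per genotype), over a grey band that marks the middle 50% of the 16652 genes tested. PLOD2 is at -6.34 and the other 7 between -0.24 and 0.59.

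Most partners shared an order among the WT samples. WT replicate 1 was the highest and WT replicate 3 the lowest WT sample for 6 of the 8 genes, the exceptions being PLOD2 and P4HA1, for which WT replicate 2 was the highest and WT replicate 1 the lowest. Among KO samples, KO replicate 3 was the highest for 6 of the 8 genes, again with PLOD2 and P4HA1 as the exceptions (KO replicate 1). How many of all genes shared these orders was not counted, so the orders are not shown to be particular to these genes. Apart from PLOD2, the coefficient of variation was 6.20% to 15.1% in KO and 14.5% to 35.5% in WT. The share of reads in short noncoding RNA genes, which set WT replicate 2 apart from the other WT samples, was 0.620% to 0.673% in KO and 3.34%, 0.978% and 3.45% in WT replicates 1, 2 and 3, and its part in these results was not tested.

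Ratios between partners within a sample do not depend on the scaling of that sample. The log2 ratio of PLOD3 to PLOD1 was -1.001, -1.043 and -1.040 in KO, against -1.139, -1.232 and -1.174 in WT, so PLOD3 was slightly higher relative to PLOD1 in every KO sample (difference 0.15, p = 0.1, exact permutation test, two-sided). The log2 ratio of P4HB to the summed alpha subunits was 2.765, 3.158 and 3.004 in KO, against 2.608, 2.275 and 1.643 in WT (difference 0.80, exact permutation p = 0.1). These did not overlap, but 0.1 is the smallest p that 3 against 3 samples allow, and the adjusted p over the 3 ratios was 0.15 for each. The log2 ratio of P4HA2 to P4HA1 was -1.834, -1.433 and -1.570 in KO, against -1.351, -1.964 and -1.997 in WT, and overlapped (difference 0.16, exact permutation p = 0.6, adjusted p = 0.6).

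Levels can be set beside each other only per length. Per kilobase of exon union, the order in KO was P4HB (2308 ± 216 normalized counts per kilobase), COLGALT1 (1450 ± 124), PLOD1 (1029 ± 75.3), SERPINH1 (950 ± 140), P4HA1 (799 ± 121), PLOD3 (473 ± 29.3), P4HA2 (79.4 ± 7.44) and PLOD2 (1.73 ± 0.927, SD, n = 3 each). In WT it was P4HB (1593 ± 511), COLGALT1 (1129 ± 291), P4HA1 (946 ± 138), SERPINH1 (943 ± 258), PLOD1 (855 ± 282), PLOD3 (355 ± 126), PLOD2 (138 ± 37.3) and P4HA2 (84.8 ± 13.5, SD, n = 3 each). In KO the neighbours PLOD1 and SERPINH1, and SERPINH1 and P4HA1, overlapped over samples. In WT all neighbours from P4HB down to PLOD1 did. By canonical length the order in KO was P4HB (10545 ± 984), SERPINH1 (2900 ± 426), COLGALT1 (2428 ± 208), PLOD1 (1840 ± 135), PLOD3 (951 ± 59.0), P4HA1 (901 ± 136), P4HA2 (177 ± 16.6) and PLOD2 (6.70 ± 3.59, SD, n = 3 each). By that length the order in WT was P4HB (7278 ± 2333), SERPINH1 (2879 ± 786), COLGALT1 (1892 ± 487), PLOD1 (1529 ± 504), P4HA1 (1066 ± 155), PLOD3 (715 ± 254), PLOD2 (534 ± 145) and P4HA2 (189 ± 30.1, SD, n = 3 each). P4HB then stood apart from SERPINH1 in both genotypes, and the places of SERPINH1, COLGALT1, PLOD1, PLOD3 and P4HA1 depended on the length used. By either length PLOD2 stood below P4HA2 in KO and above it in WT, without overlap in either genotype. Among 16609 genes with a length, PLOD2 was at percentile 0.837 to 2.81 in KO and 45.1 to 55.1 in WT, or 3.17 to 8.65 in KO and 62.7 to 73.4 in WT by canonical length. In WT polysomes PLOD2 was thus a gene of middling level, and P4HB was among the most abundant (88.9 to 93.9 in WT, 96.1 to 96.5 in KO).

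The genes around PLOD2 had little signal. Of 20 annotated genes within 1000000 bases, 14 had no read and 1 was tested. This was PLSCR1, a phospholipid scramblase gene 351455 bases away, with 813, 759 and 829 normalized counts in KO, against 1007, 1218 and 1013 in WT. It fell by 0.43 on the log2 scale (standard error 0.19, adjusted p = 0.0847 from limma), far less than PLOD2. The closest protein-coding neighbour, PLSCR4, had no read. A pair of noncoding genes inside PLOD2 on its strand had reads almost only in WT: LNCSRLR had 0, 0 and 0 reads in KO and 10, 21 and 9 in WT, and ENSG00000261051 had 1, 0 and 0 in KO and 6, 7 and 18 in WT. Their reads and those of unspliced PLOD2 transcripts cannot be told apart here, and gene counts do not separate the splice forms of PLOD2.

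The genes whose profile over the 6 samples was nearest to that of PLOD2 were SELENOP, KIF1A, C5orf58, H4C11 and RNFT2, of 11393 genes with a mean of at least 100. Their root mean square difference from PLOD2, in log2 units after centring each gene, was 0.64, 0.75, 0.78, 0.85 and 0.87, against 3.07 (P4HA1) to 3.52 (P4HB) for the 7 partners. SELENOP, a secreted selenium carrier, had 8.31, 8.16 and 3.44 normalized counts in KO, against 484, 338 and 946 in WT. KIF1A, an axonal kinesin motor, had 319, 140 and 168 in KO, against 7863, 7801 and 4573 in WT. All 5 were chosen on the centred profile over the 6 samples, to which the low KO values contribute most, and their levels differed: the KO mean was 8310 normalized counts for H4C11 and 25.1 for PLOD2. Within WT they did not share its order: WT replicate 2 was the highest WT sample for PLOD2 and the lowest for SELENOP, C5orf58, H4C11 and RNFT2.

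Among other genes that modify procollagen, 3 of the 11 tested fell, 0 rose and 8 did not pass, so that 27.3% were called against 48.2% of all genes (24.1% lower and 24.1% higher), with a median log2 fold change of -0.25 against 0.03 over all genes. TMEM38B, a cation channel of the endoplasmic reticulum whose loss impairs collagen lysyl hydroxylation, had 1772, 1329 and 1387 normalized counts in KO, against 3762, 4486 and 4864 in WT (log2 fold change -1.55, standard error 0.20). FKBP14, a prolyl isomerase of the endoplasmic reticulum, had 1015, 797 and 901 in KO, against 1907, 1887 and 2220 in WT (-1.15, standard error 0.19). FKBP7, a related isomerase, changed by -1.05 (standard error 0.26). The prolyl 3-hydroxylase complex did not pass: P3H1 had a log2 fold change of 0.39, CRTAP of -0.25 and PPIB of -0.10. FKBP10, which is known to act with PLOD2 on collagen end regions, had 22.1, 19.4 and 20.7 normalized counts in KO, against 7.30, 13.9 and 10.2 in WT. It was higher in all KO samples but did not pass (log2 fold change 0.96, standard error 0.47, adjusted p = 0.111 from limma).

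Few of the substrates of these enzymes were well detected. Of 44 collagen chain genes 32 had a mean under 10 normalized counts, and 10 of these had no read. Of the 12 tested, 3 fell, 5 rose and 4 did not pass, so that 66.7% were called against 48.2% of all genes, with a median log2 fold change of 0.24. The most abundant was COL18A1, a basement membrane collagen, with 11404, 12797 and 14653 normalized counts in KO, against 10910, 6583 and 4148 in WT (0.95, standard error 0.28). COL15A1, its close relative, went the other way, with 272, 250 and 255 in KO, against 1382, 1012 and 770 in WT (-1.98, standard error 0.23). The transmembrane collagens COL25A1 and COL23A1 also fell, by 1.67 (standard error 0.22) and 0.81 (standard error 0.25) on the log2 scale, and COL23A1 no longer passed with scaling to library totals (-0.49, adjusted p = 0.105 from limma). The fibrillar chain COL1A1 had 44.3, 43.8 and 43.1 in KO, against 37.6, 32.8 and 19.3 in WT, and did not pass (0.59, adjusted p = 0.213 from limma).

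Of 22 tested genes for collagen export, processing and cross-linking, 2 fell, 3 rose and 17 did not pass, so that 22.7% were called against 48.2% of all genes, with a median of 0.06. The GTPase genes SAR1A (-0.89, standard error 0.20) and SAR1B (-0.82, standard error 0.20), which start COPII coat assembly, fell. The coat gene SEC24C (0.60, standard error 0.20) and the procollagen protease gene ADAMTS14 (0.66, standard error 0.22) rose. LOX, which oxidizes lysine and hydroxylysine for cross-links, had no read. The ADAMTS14 call was lost without KO replicate 2 (adjusted p = 0.109 from limma) and with the correction for transcript length (0.50, adjusted p = 0.121), and that of SEC24C without KO replicate 3 (adjusted p = 0.133).

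Of 25 tested relatives and partners of P4HB in oxidative folding, 6 fell, 3 rose and 16 did not pass, with a median of 0.03. The share called was 36% against 48.2% of all genes (24.1% lower and 24.1% higher). VKORC1, the vitamin K epoxide reductase, had 133.8, 121.3 and 126.6 normalized counts in KO, against 556.1, 561.9 and 809.2 in WT (log2 fold change -2.31, standard error 0.23). PRDX4, the peroxiredoxin of the endoplasmic reticulum, had 3981, 3231 and 3372 in KO, against 11689, 11971 and 11773 in WT (-1.75, standard error 0.19), and TXNDC12 changed by -1.49 (standard error 0.20). The chaperone gene HYOU1 rose (1.10, standard error 0.23), as did PDIA3 (0.86, standard error 0.24), whereas HSPA5 did not pass (0.29, adjusted p = 0.342 from limma).

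PLOD and P4HA proteins use 2-oxoglutarate, iron and oxygen, and of 29 other tested genes of such oxygenases 7 fell, 2 rose and 20 did not pass, with a median of -0.03. The share called was 31.0% against 48.2% of all genes (24.1% lower and 24.1% higher). ASPH, an aspartyl hydroxylase of the endoplasmic reticulum, had 389, 373 and 415 normalized counts in KO, against 788, 1299 and 1066 in WT (log2 fold change -1.39, standard error 0.22). RIOX2 and ALKBH2 fell by 0.99 (standard error 0.20) and 0.90 (standard error 0.20). EGLN1, the oxygen sensor that marks hypoxia-inducible factor for degradation, rose, with 831, 1340 and 1097 in KO, against 676, 738 and 347 in WT (0.94, standard error 0.27).

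Since PLOD2, P4HA1 and P4HA2 are known to be induced by hypoxia, the other genes of that pathway were also counted. Of 39 tested, 9 fell, 7 rose and 23 did not pass, with a median of 0.15. The share called was 41.0% against 48.2% of all genes (24.1% lower and 24.1% higher). HIF1A, which encodes the oxygen-regulated factor, did not pass (log2 fold change -0.18, 95% interval -0.60 to 0.24), and neither did the targets VEGFA (95% interval -0.39 to 0.38, adjusted p = 0.989 from limma), PGK1 (0.22) and LDHA (0.08). These targets were picked after their values were seen and do not stand for all targets. Others had lower or higher values, as BNIP3 (-1.07), ALDOA (-1.04) and ANGPTL4 (0.74) did. The members that moved most went both ways. The cytokine gene MIF (-1.40, standard error 0.26) and ANKRD37 (-1.33, standard error 0.24) fell. The histone demethylase gene KDM4B (1.28, standard error 0.23) and the carbonic anhydrase gene CA12 (1.26, standard error 0.23) rose.

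**Figure D4:**
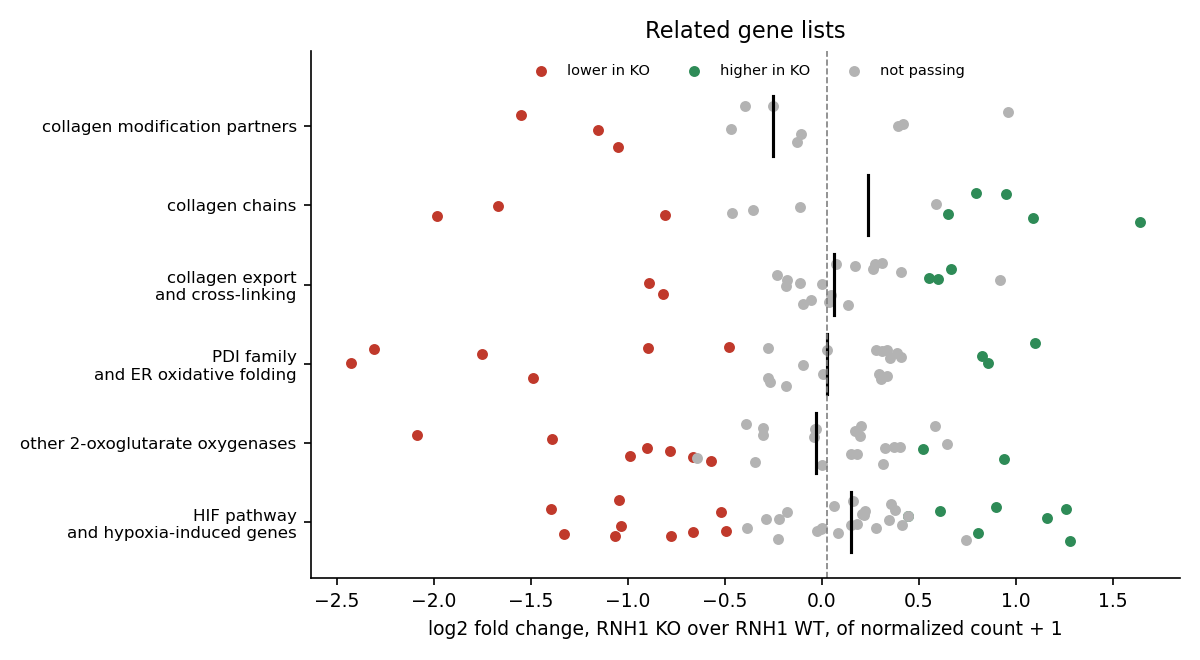
Log2 fold change of KO over WT (horizontal axis) of each tested gene of the 6 related lists, red where lower in KO, green where higher and grey where limma's adjusted p was not under 0.1. Black bars mark list medians, from -0.25 to 0.24, and the dashed line the median of all genes at 0.03; vertical scatter within a list has no meaning.

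Change in this comparison varied with transcript length. Over the 11959 tested protein-coding genes, split into 5 bins of equal size by canonical length, the median log2 fold change was -0.51, -0.10, 0.06, 0.13 and 0.31, with the shortest first. P4HB and SERPINH1 belonged to bin 2, PLOD1, PLOD2, PLOD3, P4HA1 and COLGALT1 to bin 3 and P4HA2 to bin 4. The 8 genes were thus of ordinary length, and PLOD2 lay 6.40 below the median of its bin on the log2 scale.

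**Figure D5:**
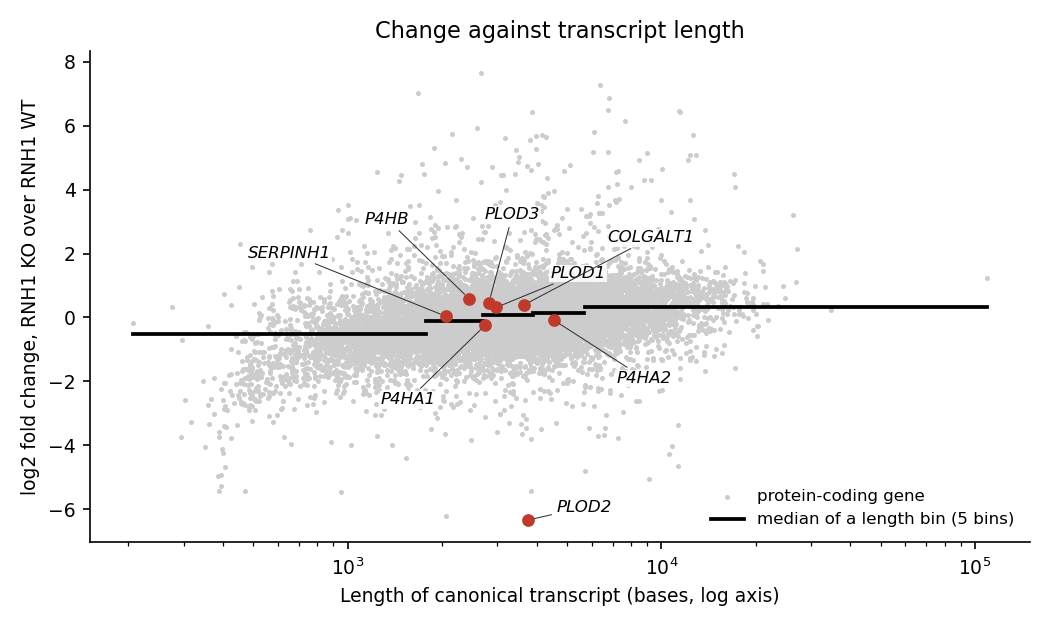
Log2 fold change of KO over WT (vertical axis) against the length of the canonical transcript (log axis) for protein-coding genes, with the 8 genes in red and black bars at the median of each of 5 length bins. The medians reach 0.31 in the bin of the longest transcripts, and PLOD2 lies at the bottom of the plot at -6.34.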

How the data were processed

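Polysomal RNA of 3 RNH1 KO and 3 RNH1 WT samples was analyzed. Reads were mapped to GRCh38 by the authors with HISAT2 2.2.1 and assigned to Ensembl genes with featureCounts 2.0.1, followed by DESeq2 1.36.0 (versions of the submitters' processing notes, which differ from those in the study's methods). Whether strand was used in counting is not given. The deposited values used here are a signal, counts per gene over the DESeq2 size factor of the sample. The authors also deposited means per genotype, log2 fold changes of WT over KO, their standard errors and test statistics (scores) and p-values, and none of these was used. Of the sample columns 0 were unmapped. Dividing by the smallest step of a sample gave whole numbers for 100% of its nonzero values (tolerance 1e-06), taken as reads. The value of 3 reads was 2.58 to 3.40 normalized counts. The design was written for raw or normalized values, and the form for normalized values applied.

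For the 16652 genes whose mean reached 10 normalized counts, log2(value + 1) was fitted on genotype alone with limma 3.58.1 (trend and robust options, R 4.3.3). The cutoff was that of the study's methods, an adjusted p (Benjamini-Hochberg) below 0.1. As alternatives, edgeR 4.0.16 (quasi-likelihood) and DESeq2 1.42.0 were run on these reads. Others were pseudocounts of 0.5 and 5, no filter, a minimum mean of 50, 3 other scalings, a replicate block, a correction for transcript length and leaving out each library. The pooled reads of PLOD2, its neighbours and the shares by canonical length were added after the data were seen. Ratios within samples used exact permutation tests, two-sided. The members, gene lists and tests were chosen with earlier results of these data known. Genes named are the 8 members, up to 4 genes per list that passed with a mean of at least 100 and the largest absolute log2 fold change, and the 5 nearest profiles. Further genes were named after their values were seen, as P3H1, COL1A1, PDIA3, HSPA5, HIF1A, VEGFA, BNIP3, ALDOA and ANGPTL4 were. Lengths and coordinates are from GENCODE 44 on GRCh38, promoters from RefSeq (GRCh38.p14), where all 8 members matched. The fit was first tested on simulated data with known changes.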

Additional observations from a re-analysis of the deposited data

How the results depend on the processing

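PLOD2 had log2 fold changes between -6.39 and -6.02 under the settings that kept all libraries and between -6.74 and -6.11 without single libraries. A scaling moves all genes alike, which changed calls and signs among the partners. Upper-quartile and library total scaling moved the median of all genes by 0.14 and 0.32 on the log2 scale, and library total scaling gave 2419 genes lower and 6615 higher against 4012 and 4010. Library total scaling gave PLOD1 0.64, PLOD3 0.79 and COLGALT1 0.72, all then passing, and turned P4HA1 to 0.081 and P4HA2 to 0.24. Upper-quartile scaling gave PLOD3 0.61 and COLGALT1 0.53, both passing, and P4HA2 0.055. PLOD3 passed with the length correction (0.48). Without single libraries the log2 fold change ranged over 0.12 to 0.57 (PLOD1), 0.28 to 0.74 (PLOD3), -0.21 to 0.024 (P4HA2, positive without WT replicate 1), 0.29 to 0.76 (P4HB), 0.16 to 0.53 (COLGALT1) and -0.14 to 0.24 (SERPINH1, -0.07 without KO replicate 3). The causes were not tested.

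Counts in the lists depended on the scaling in the same way. With upper-quartile and then library total scaling, 3 and 3 modification partners were higher, 7 and 9 export genes, 7 and 12 folding genes, 5 and 10 oxygenases and 13 and 19 hypoxia genes, and library total scaling left 4 oxygenases and 5 hypoxia genes lower. With the length correction 5 modification partners were lower and 2 higher, 3 collagen chains, 1 export gene and 5 folding genes were higher. A pseudocount of 5 gave 1 modification partner higher. Without single libraries the genes higher ranged over 0 to 2 (partners), 3 to 5 (chains), 1 to 5 (export), 2 to 9 (folding), 1 to 4 (oxygenases) and 5 to 12 (hypoxia), and hypoxia genes lower over 5 to 9. Over all genes, 3041 to 4356 were lower and 2828 to 4500 higher.

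Samples with the same replicate number did not deviate together (r = -0.16, -0.19 and -0.27), and 0 samples correlated best with their own number. The deviations were taken from means of 3 samples and the correlations were weak, so these values do not settle whether the number pairs samples. With the number as a replicate block 3310 genes were lower and 3243 higher, P4HB no longer passed (0.59, adjusted p = 0.127 from limma, but 0.66 and 0.0294 with block and length correction), SEC24C did not pass (0.101, likewise with both), 1 export gene was higher, and with the block and the length correction 2 collagen chains and 1 export gene were. Depth limits PLOD2 in KO, where 18 to 44 reads lie behind each value.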
